A study of Mus musculus with 30 samples.

Results

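The genes described here are those of the amino acid response and the aminoacyl-tRNA synthetases, followed over 48 h in cultured cells whose label is mouse leg muscle. They are a fixed list of 36 gene symbols, grouped by known function. The rule uses no measured value, although the list was drawn up with earlier results of these data known. Of these, 35 were named by a single-gene probe set, out of 18193 genes named in the same way. Pycr1 had no such probe set, so its expression was not analysed, and it enters only the promoter search below. Total RNA was taken at 0, 4, 12, 24 and 48 h, 3 replicates at each hour, and every replicate was hybridised to both chips (A and B) of an Affymetrix oligonucleotide set, 30 arrays altogether. The labels give no strain, genotype, age, medium or treatment for any hour, nor the event that starts the clock. Whether the replicates are separate cultures is not stated either, and p-values then cover the spread among these arrays alone, possibly technical.

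A cell that runs short of amino acids, or meets certain other stresses, phosphorylates the translation factor eIF2, which slows protein synthesis as a whole while the transcription factor ATF4 is made in larger amounts. ATF4 binds composite C/EBP-ATF elements and turns on genes that make amino acids, import them and charge them onto tRNAs. The same branch turns on ATF3, ATF5, DDIT3 (CHOP) and TRIB3. The list therefore splits into 8 stress transcription factors and regulators, 8 genes of amino acid and one-carbon synthesis, 7 amino acid transporters and 12 cytosolic tRNA synthetases.

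The letters that this background points to can be read in the promoters. The core of the C/EBP-ATF element, TGATGNAA, was searched on both strands of RefSeq promoters of 300 bases (GRCm38.p6, from 250 bases before to 50 after the start). It was present in 12 of the 29 listed genes that have an entry (41.4%), against 1219 of 27025 genes (4.51%). The listed genes were themselves drawn from known targets of ATF4, and a match is a description of the letters, not of binding. The stretches around the match are shown for Asns, the classic target, and for the 5 other genes with the smallest F test p over the hours among those with a match. Each is written 5′ to 3′ on the gene's strand with the match in capitals. A match on the other strand reads TTNCATCA, and at most 30 bases after the start are shown.
Asns: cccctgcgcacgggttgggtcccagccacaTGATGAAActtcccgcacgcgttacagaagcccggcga
Iars: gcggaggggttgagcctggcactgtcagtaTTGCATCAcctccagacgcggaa
Yars: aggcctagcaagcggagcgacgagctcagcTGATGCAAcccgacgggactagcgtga
Gars: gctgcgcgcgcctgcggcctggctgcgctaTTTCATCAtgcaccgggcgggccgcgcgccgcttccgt
Tars: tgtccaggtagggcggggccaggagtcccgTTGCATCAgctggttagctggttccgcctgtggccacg
Trib3: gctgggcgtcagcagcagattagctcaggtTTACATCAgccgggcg
In GRCm38.p6 the Asns stretch lies at chr6:7693195-7693262 on the minus strand, and the Iars stretch at chr13:49682107-49682159 on the plus strand. The Yars stretch is chr4:129189876-129189932 (plus) and the Gars stretch chr6:55037941-55038008 (plus). Those of Tars and Trib3 are chr15:11399636-11399703 and chr2:152344031-152344076, both on the minus strand. Among the listed synthetases 5 of 8 promoters held a match, whereas 0 of 5 of the other cytosolic synthetases and 0 of 14 of the mitochondrial ones did. Of the 5 genes called at 24 h over all arrays (below), Asns held a match, Atf5 and Eprs had a promoter without one, and Slc7a5 and Nars had no entry.

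The values are probe set intensities as deposited, whose trimmed mean was 500.1 to 500.2 on every array. No pair of arrays was identical. Differences are on the scale log2(intensity + pseudocount), with a pseudocount of 29 on A and 54 on B, and intensities of different probe sets are not compared. The upper 60% of probe sets were tested with limma at an adjusted p under 0.05, and 34 of the 35 genes passed that filter, 33 of them on A and Mars on B. The A arrays of replicate 3 stood apart: their deviations from the hour means correlated at 0.475 to 0.726 with each other. Over the hours, 28 of the 34 genes read higher in replicate 3 than in replicates 1 and 2, by a median of 0.23 (log2). The same count was not taken over all genes, so it is not shown to be particular to the 34. Results are therefore given over all arrays, with a term for replicate 3, and in replicates 1 and 2 alone.

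The muscle label was borne out by its markers. All 8 muscle markers passed the filter, among them Myod1, Myog and Myh3, with a summed intensity of 46424 to 54373 at 0 h and 41558 to 68891 at 48 h. Of the fibroblast markers Col3a1 alone passed (1 of 6), and 0 of 2 adipocyte, 2 of 5 endothelial, 2 of 5 macrophage or leukocyte, 1 of 2 Schwann cell and 3 of 5 pericyte or smooth muscle markers did. RNA of the whole culture was measured, so fewer cells of a type and less RNA per cell cannot be told apart.

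At 24 h, 5 genes were higher than at 0 h: the neutral amino acid transporter Slc7a5, asparagine synthetase Asns, the stress transcription factor Atf5, and the synthetases Eprs and Nars. These were 5 of 34 tested, and 0 were lower. Over all 11772 genes represented in the same way 2.61% were called at 24 h, 1.65% as higher and 0.96% as lower. The median difference of the 34 genes was 0.36 (log2), against -0.05 for all genes, and 28 of 34 means were above 0. The arrays at 24 h and 0 h did not overlap for 17 genes that were higher (all genes, 9.68%) and for 1 that was lower, Ddit4 (all genes, 11.3%). The count of 5 was 0 without the 0 h array of replicate 2. It was 1 (Slc7a5) without the 0 h array of replicate 1 or either 24 h array of replicates 1 and 2, and 3 without any of the 4 h arrays of replicates 1 and 2, any 12 h array, or the 48 h array of replicate 1.

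The spread was smaller when replicate 3 was given a term of its own. Then 12 genes were higher at 24 h and 1 was lower, while 11.8% of all genes were called (5.53% higher, 6.24% lower). The 13 include the 5 above and add Mthfd2, Psat1, Cth, Iars, Gars, Tars and Cars as higher and Ddit4 as lower. In replicates 1 and 2 alone 14 were called, 10 of them shared with those 13, and 13.6% of all genes. The 4 found in replicates 1 and 2 alone and not with the term were Trib3, Psph, Shmt2 and Lars, all higher.

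**Figure D1:**
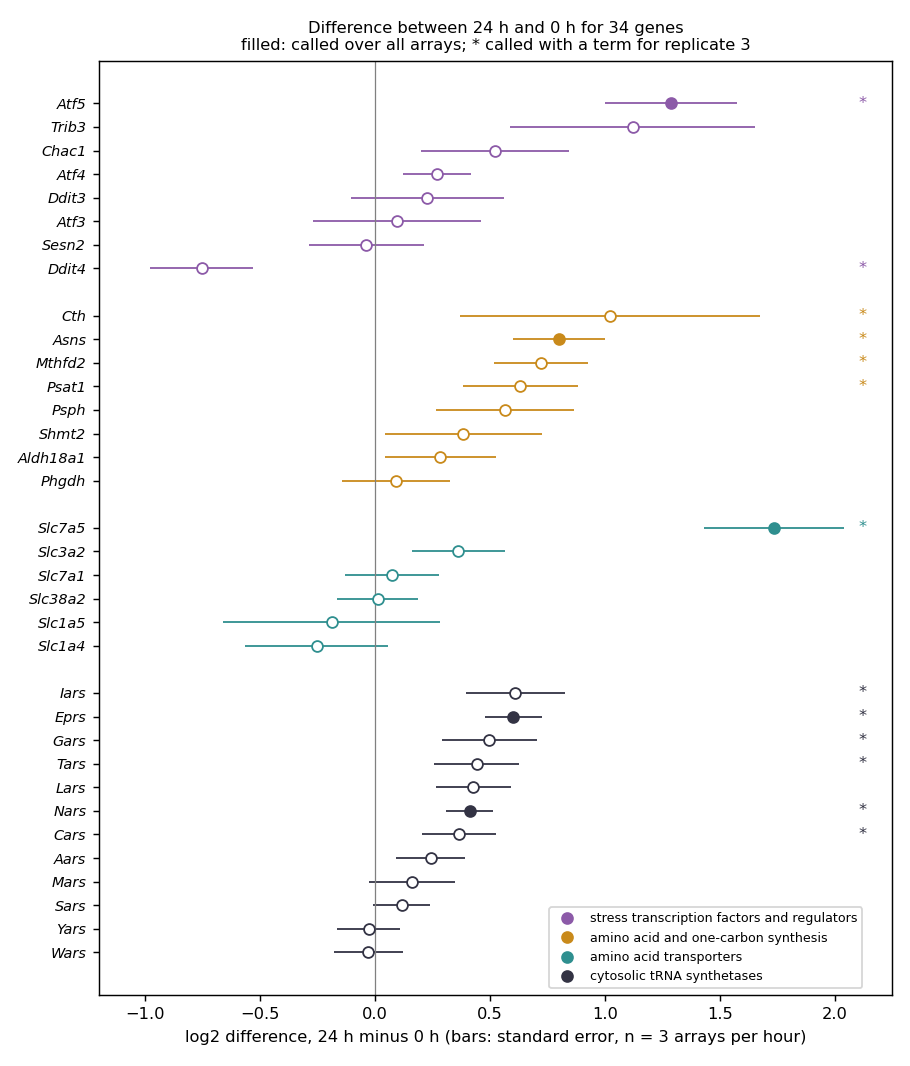
Difference between 24 h and 0 h on the log2 scale (x axis) for each of the 34 tested genes (y axis), grouped and coloured by role, with standard errors over 3 arrays per hour. Slc7a5, Atf5, Asns, Eprs and Nars, the 5 filled points, were called over all arrays, and asterisks at the right mark the 13 genes called with a term for replicate 3.

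Earlier and later hours gave fewer calls. At 4 h and 12 h limma called 0 of 34 over all arrays, while 0% of all genes were called at either hour. At an unadjusted p under 0.05 there were 4 of 34 at 4 h (all genes 4.39%) and 7 at 12 h (all genes 6.74%). With a term for replicate 3, Asns and Slc7a5 were called at 12 h (2 of 34, all genes 0.977%). At 48 h only Slc7a5 was called over all arrays (1 of 34, all genes 2.08%). That call was lost without any 1 array of replicates 1 and 2 and without the 48 h array of replicate 3, which left 0. With the term, 7 genes were higher at 48 h, namely Asns, Psat1, Cth, Slc7a5, Slc1a5, Eprs and Iars, with 9.15% of all genes called. The F test over all hours called Slc7a5 (1 of 34, adjusted p = 0.0362, all genes 2.06%). That count was 4 without the 48 h array of replicate 3 (Slc7a5, Atf5, Trib3 and Psph) and 0 without any 1 array of replicates 1 and 2 or the 24 h array of replicate 3.

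**Figure D2:**
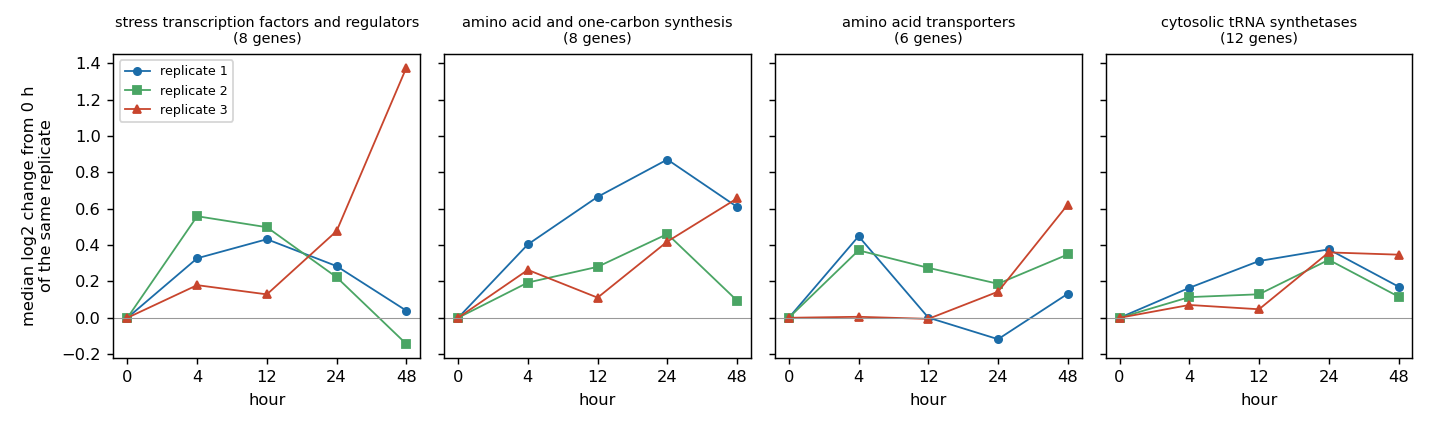
Median log2 change from the 0 h array of the same replicate number (y axis) by hour (x axis) in each replicate, for the 4 role groups, with the number of tested genes in each panel. At 48 h the stress regulators of replicate 3 lie at 1.38, while those of replicates 1 and 2 lie at 0.04 and -0.14.

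Among the stress transcription factors and regulators, Atf5 rose and Ddit4 read lower, while Atf4 itself was not called. Values of single arrays are given here and below in the order replicate 1, 2 and 3. Atf4, the factor at the centre of the response, read 3553, 3164 and 3487 at 0 h, 4460, 4734 and 3757 at 4 h, 4243, 4516 and 3636 at 12 h, 4051, 4003 and 4246 at 24 h, and 4157, 3056 and 4719 at 48 h. All arrays at 4, 12 and 24 h lay above those at 0 h, but the difference at 24 h, 0.27 ± 0.15 (log2, SE), was not called (adjusted p = 0.403). On a dimmer second Atf4 probe set this separation from 0 h held at 24 h alone. That probe set read 1186, 831 and 1197 at 0 h, 1139, 1358 and 1219 at 4 h, 1326, 1102 and 983 at 12 h, and 1606, 1330 and 1577 at 24 h. ATF4 is set largely by translation of its mRNA, so its transcript is not a measure of the protein.

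Atf5, a related factor that is also made when eIF2 is phosphorylated, read 737, 731 and 715 at 0 h, 1272, 1289 and 773 at 4 h, 1799, 1569 and 1292 at 12 h, 1778, 2416 and 1395 at 24 h, and 808, 847 and 1817 at 48 h. It was above 0 h on every later array. By 48 h it was near its starting level in replicates 1 and 2 and at its highest in replicate 3. The rise at 24 h was 1.29 ± 0.29 (SE, adjusted p = 0.0269), and 0.00427 with a term for replicate 3. Over the 23 alternatives the adjusted p ran from 4.83e-05 to 0.158, and the call was lost without any array at 0 h and without the 24 h array of replicate 1 or 2.

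Ddit4 (REDD1), a stress-induced inhibitor of the growth kinase mTORC1, went the other way. It read 1496, 1302 and 901 at 0 h, 1194, 977 and 951 at 4 h, 960, 870 and 651 at 12 h, 655, 635 and 841 at 24 h, and 700, 675 and 1086 at 48 h. The 24 h arrays lay below all 0 h arrays. The difference was -0.75 ± 0.22 over all arrays, which was not called (adjusted p = 0.0984). It was called with a term for replicate 3 (adjusted p = 0.0252, with 0.000293 to 0.326 over the alternatives).

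Ddit3, Trib3 and Chac1 are turned on in the later phase of the response, and CHOP can lead to cell death. Ddit3, which encodes CHOP, read 228, 216 and 189 at 0 h, 259, 368 and 270 at 4 h, 310, 363 and 193 at 12 h, 212, 246 and 303 at 24 h, and 177, 219 and 593 at 48 h. Trib3, a pseudokinase that feeds back on ATF4, read 110, 125 and 156 at 0 h, 230, 249 and 269 at 4 h, 254, 258 and 214 at 12 h, 307, 277 and 368 at 24 h, and 190, 117 and 1256 at 48 h. Chac1, which degrades glutathione, read 594, 712 and 469 at 0 h, 933, 847 and 531 at 4 h, 830, 734 and 664 at 12 h, 864, 867 and 821 at 24 h, and 573, 533 and 1583 at 48 h. In all 3 genes the 48 h array of replicate 3 was the highest of the 15, and replicates 1 and 2 at 48 h were below their own 24 h values. At 24 h Trib3 was above 0 h on every array, by 1.12 ± 0.53, but not called over all arrays (adjusted p = 0.31). It was called in replicates 1 and 2 alone (adjusted p = 0.00333, 0.00333 to 0.555 over the alternatives).

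Atf3, an early stress factor, and Sesn2, a sestrin that senses leucine and restrains mTORC1, completed the group. Atf3 stayed between 116 and 251 except for 517 at 48 h in replicate 3. Sesn2 stayed between 218 and 317 except for 571 on that same array. Neither was called in any comparison over all arrays or with a term for replicate 3.

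All 8 synthesis genes had a higher mean at 24 h than at 0 h. Their median difference was 0.60. From 12 to 24 h all 8 were higher in each of the 3 same-numbered pairs of arrays, which 15.8% of all genes did, although limma called 0 of the 34 genes for that step (1 at an unadjusted p under 0.05, all genes 6.4%). Over all arrays 1 of 8 was called at 24 h (all genes, 2.61%), and with a term for replicate 3, 4 of 8 (all genes, 11.8%). Asns, which makes asparagine from aspartate and glutamine, read 2795, 2835 and 4108 at 0 h, 3529, 3311 and 5187 at 4 h, 4428, 4669 and 4894 at 12 h, 5414, 5267 and 6115 at 24 h, and 4688, 3942 and 6407 at 48 h. Replicate 3 was highest at every hour, and within each replicate 24 h was above 0 h. The rise at 24 h was 0.80 ± 0.20 (SE, adjusted p = 0.047) over all arrays and had an adjusted p of 0.000529 with the term for replicate 3 (0.000244 to 0.206 over the alternatives). The call was lost in 13 of 23 alternatives. These were quantile normalization, no filter, and leaving out the 0 h or 4 h array of replicate 1 or 2, any 12 h or 24 h array, or the 48 h array of replicate 1.

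Psat1 and Psph act in the serine pathway, in which Phgdh is the first enzyme. Psat1 read 2590, 3290 and 4700 at 0 h, 3570, 3231 and 6138 at 4 h, 4146, 4118 and 5441 at 12 h, 5342, 4800 and 5875 at 24 h, and 4243, 4362 and 6298 at 48 h. The lowest 24 h array lay above the highest at 0 h, and the difference was 0.63 ± 0.25 (adjusted p = 0.213), or 0.00403 with a term for replicate 3 (0.00164 to 0.452 over the alternatives). On a dimmer second Psat1 probe set these hours overlapped, although each replicate was higher at 24 h. It read 1292, 1232 and 2426 at 0 h and 2257, 1998 and 3001 at 24 h. Psph read 802, 1064 and 1131 at 0 h, 1457, 1381 and 1599 at 24 h, and 698, 813 and 2150 at 48 h, so that it was below its 0 h value in replicates 1 and 2 and far above it in replicate 3. Phgdh ran from 3105 to 5949 with its highest array at 0 h in replicate 3, and its difference at 24 h was 0.09 ± 0.24 (adjusted p = 0.902).

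The mitochondrial one-carbon enzyme Mthfd2 read 1403, 1946 and 2061 at 0 h, 2144, 2551 and 3136 at 4 h, 2964, 2605 and 2312 at 12 h, 2981, 3005 and 2884 at 24 h, and 2033, 2083 and 3419 at 48 h. It lay above every 0 h array at 4, 12 and 24 h. The difference at 24 h was 0.72 ± 0.21 (adjusted p = 0.0822), with 0.0115 under a term for replicate 3 and 0.00309 to 0.265 over the alternatives. Its dimmer second probe set was called over all arrays, at 1.19 ± 0.24 (adjusted p = 0.0188). Shmt2, which supplies one-carbon units from serine, and Aldh18a1, which starts proline synthesis, differed at 24 h by 0.38 ± 0.34 and 0.28 ± 0.24 and were not called.

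Cth, which makes cysteine from cystathionine, showed the widest split between replicates of the group. It read 88, 78 and 228 at 0 h, 85, 91 and 304 at 4 h, 168, 154 and 239 at 12 h, 184, 170 and 608 at 24 h, and 226, 248 and 1529 at 48 h. Replicate 3 was higher at every hour, and all 3 replicates were highest at 48 h. The 48 h difference was 1.70 ± 0.65 over all arrays (adjusted p = 0.22), and was called with a term for replicate 3 (adjusted p = 0.000967, 0.000967 to 0.557 over the alternatives). The changes from 0 to 48 h were 1.12, 1.38 and 2.60 in replicates 1, 2 and 3.

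**Figure D3:**
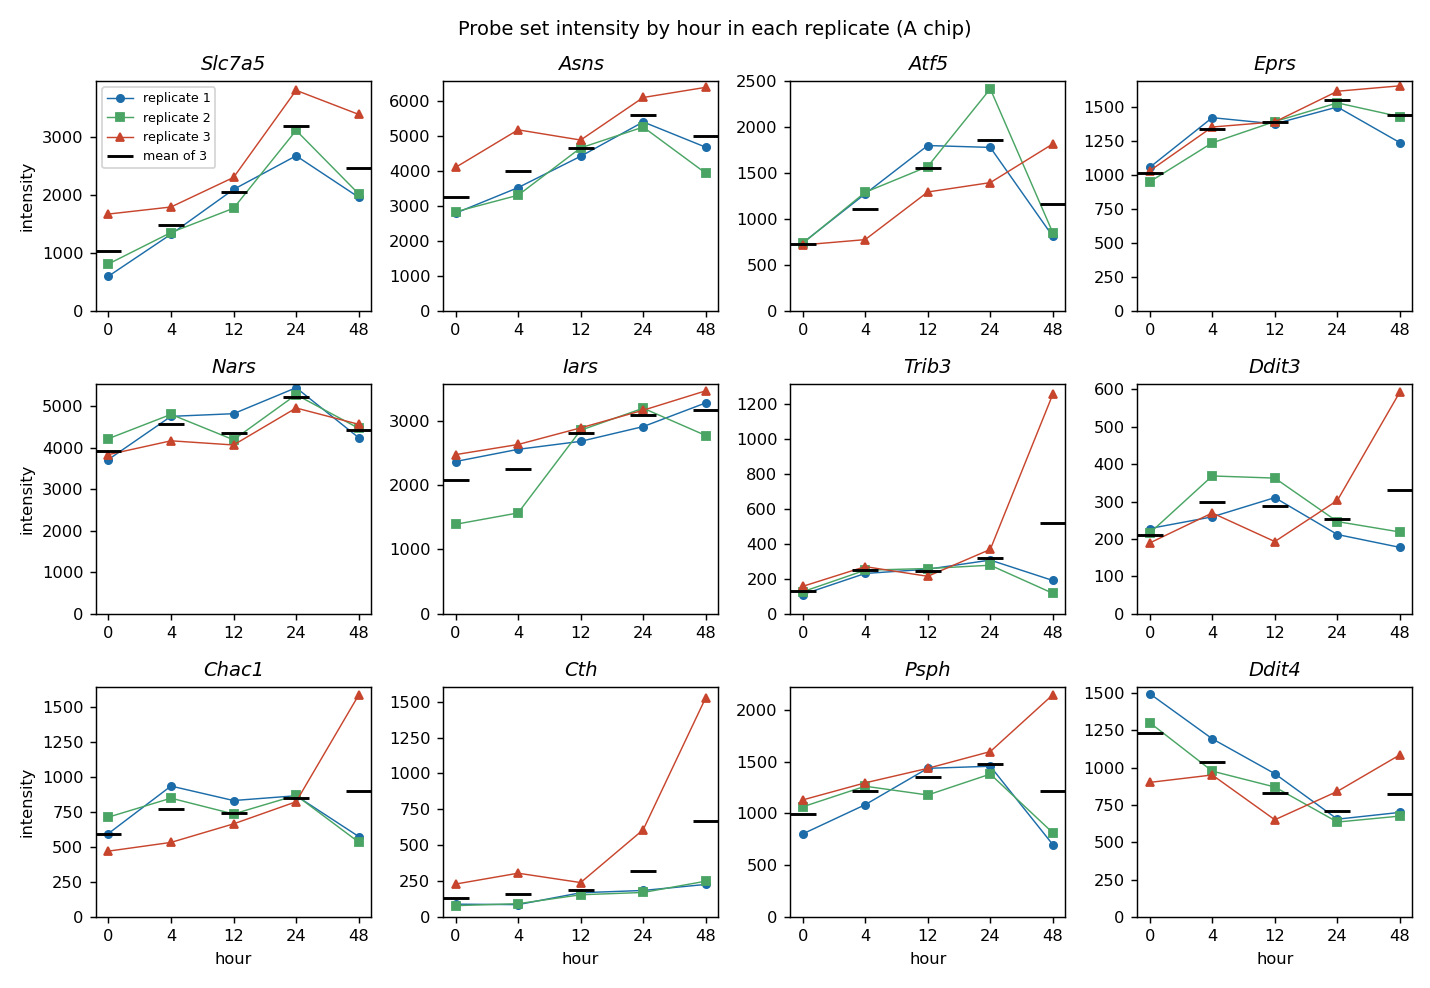
Probe set intensity (y axis, linear, starting at 0) by hour (x axis) for 12 of the genes on the A chip, with 1 point per array, a line per replicate and a bar for the mean of 3. Slc7a5 rises in every replicate to 24 h, Ddit4 declines in replicates 1 and 2, and Trib3, Ddit3, Chac1, Cth and Psph reach their highest value on the 48 h array of replicate 3 (Trib3, 1256 there against 190 and 117).

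The transporters did not move as a group. Slc7a5 (LAT1), which imports leucine and other large neutral amino acids, had the largest difference of the 34 genes at 24 h. It read 595, 807 and 1671 at 0 h, 1322, 1351 and 1793 at 4 h, 2097, 1771 and 2305 at 12 h, 2678, 3118 and 3812 at 24 h, and 1961, 2020 and 3395 at 48 h. Each replicate rose from 0 h to 24 h and was lower at 48 h, and every array at 12 h or later was above all of those at 0 h. The rise was 1.74 ± 0.30 at 24 h (SE, adjusted p = 0.0085) and 1.32 ± 0.30 at 48 h (adjusted p = 0.0388). The 24 h call held in 22 of 23 alternatives and was lost without the 0 h array of replicate 2 (highest adjusted p 0.0582). The 48 h call held in 11 of 23, with adjusted p from 4.96e-05 to 0.185.

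Slc3a2 (4F2hc) is the heavy chain with which Slc7a5 forms the working transporter. It read 2355, 3304 and 3147 at 0 h, 3698, 4934 and 3653 at 4 h, 3779, 4473 and 2942 at 12 h, 4016, 3778 and 3456 at 24 h, and 3208, 2860 and 4640 at 48 h. It was above all 0 h arrays at 4 h and at 24 h, and its difference at 24 h, 0.36 ± 0.20, was not called (adjusted p = 0.404).

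Slc1a4 (ASCT1), a carrier of alanine, serine and cysteine, read 301, 356 and 209 at 0 h, 542, 425 and 292 at 4 h, 317, 340 and 257 at 12 h, 225, 201 and 277 at 24 h, and 200, 224 and 537 at 48 h. Slc38a2 (SNAT2) read 2606, 1947 and 2592 at 0 h, 2703, 2772 and 2030 at 4 h, 2140, 2366 and 2188 at 12 h, 2083, 2246 and 2886 at 24 h, and 2442, 2748 and 3453 at 48 h. For both, the arrays of every later hour overlapped those at 0 h, and neither was called against 0 h in any of the 3 fits. Slc1a5 (ASCT2), a glutamine carrier, read 203, 218 and 460 at 0 h and 268, 379 and 760 at 48 h, with replicate 3 higher at every hour. Its 48 h difference of 0.59 ± 0.47 was not called over all arrays (adjusted p = 0.625) and was called in 2 of 23 alternatives, one of them the term for replicate 3 (adjusted p = 0.0365, 0.0365 to 0.899 over the alternatives).

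The remaining transporters were hard to read on the A chip. Slc7a1 (CAT1), the carrier of arginine and lysine, ran from 68 to 150 on its A probe set. A far brighter B probe set of the gene read 8064, 8544 and 9272 at 0 h, 13031, 15251 and 13214 at 24 h, and 8314, 6439 and 13063 at 48 h. Its 24 h difference was 0.68 ± 0.20 (adjusted p = 0.153), or 0.0331 with a term for replicate 3. Slc7a11 (xCT), the cystine importer, was below the filter. Its A probe set read 39, 14 and 63 at 0 h and 101, 67 and 216 at 48 h, and its B probe set read 87, 88 and 711 at 48 h, so that the 48 h array of replicate 3 was again the highest.

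The cytosolic tRNA synthetases, which load each amino acid onto its tRNA, had mostly small differences, with a spread that varied from gene to gene. At 24 h, 10 of the 12 means were above 0, with a median of 0.39, and 9 of 12 were higher in all 3 same-numbered pairs of arrays (all genes, 19.3%). Over all arrays 2 of 12 were called (all genes, 2.61%), and 6 of 12 with a term for replicate 3 (all genes, 11.8%). Eprs, the bifunctional enzyme for glutamate and proline, read 1054, 948 and 1028 at 0 h, 1420, 1235 and 1351 at 4 h, 1374, 1392 and 1389 at 12 h, 1499, 1529 and 1614 at 24 h, and 1236, 1427 and 1654 at 48 h. Every later array lay above all those at 0 h. The rise was 0.60 ± 0.12 at 24 h (SE, adjusted p = 0.0194), and the call held in 19 of 23 alternatives, being lost without the 0 h or 24 h array of replicate 1 or 2 (highest adjusted p 0.103).

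Nars, for asparagine, read 3714, 4216 and 3832 at 0 h, 4753, 4800 and 4164 at 4 h, 4817, 4189 and 4064 at 12 h, 5443, 5275 and 4954 at 24 h, and 4239, 4465 and 4561 at 48 h. Its 24 h arrays were above those of 0, 4, 12 and 48 h. The rise at 24 h was 0.41 ± 0.10 (adjusted p = 0.047), and the call was lost in 14 of 23 alternatives (adjusted p 0.011 to 0.221). These were quantile normalization, no filter, and leaving out any 0 h or 12 h array or the 4 h, 24 h or 48 h array of replicate 1 or 2. A second Nars probe set gave 0.49 ± 0.10 (adjusted p = 0.0167).

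Iars, for isoleucine, read 2368, 1392 and 2476 at 0 h, 2558, 1568 and 2634 at 4 h, 2683, 2856 and 2892 at 12 h, 2912, 3198 and 3167 at 24 h, and 3281, 2773 and 3469 at 48 h. Replicate 2 was low at 0 and 4 h, and all arrays from 12 h on were above those at 0 h. Its difference at 24 h was 0.61 ± 0.22 (adjusted p = 0.16), while a second, less variable probe set gave 0.40 ± 0.10 and was called (adjusted p = 0.047). Yars, for tyrosine, held no such course. It read 1300, 1473 and 1397 at 0 h, 1198, 1289 and 1146 at 4 h, 1157, 1019 and 1395 at 12 h, 1378, 1429 and 1281 at 24 h, and 1516, 1305 and 1666 at 48 h.

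Of the other listed synthetases Gars, Tars, Lars and Cars (glycine, threonine, leucine and cysteine) differed at 24 h by 0.50 ± 0.21, 0.44 ± 0.19, 0.43 ± 0.16 and 0.37 ± 0.16, with adjusted p of 0.236, 0.248, 0.198 and 0.271. With a term for replicate 3 these became 0.0457, 0.0371, 0.0542 and 0.0426. Aars, Mars and Sars (alanine, methionine and serine) differed by 0.24 ± 0.15, 0.16 ± 0.19 and 0.12 ± 0.12. Wars (tryptophan) and Yars differed by -0.03 ± 0.15 and -0.03 ± 0.14. These 5 were not called at 24 h in any of the 3 fits.

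The synthetases that are not on the list behaved differently from one another. Of 7 other cytosolic synthetases tested, Qars (glutamine) fell at 24 h, reading 1921, 2063 and 2036 at 0 h and 1289, 1188 and 1368 at 24 h, a difference of -0.64 ± 0.13 (adjusted p = 0.0197). Farsb, a subunit of the phenylalanine enzyme, was higher by 0.39 ± 0.12, which was not called over all arrays (adjusted p = 0.0983) and was called with a term for replicate 3 (0.0273) and in replicates 1 and 2 alone (0.0325). The median of the 7 was -0.08. Of 16 mitochondrial synthetases 1 was called, Nars2, which read 1763, 2011 and 1952 at 0 h and 6278, 5089 and 3488 at 24 h (1.31 ± 0.21, adjusted p = 0.00716). The median of those 16 was -0.05, and 0 of 3 scaffold proteins of the multi-synthetase complex were called (all genes, 2.61%).

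Other genes of the pathway gave 1 call per list at 24 h (all genes, 2.61%). Among 24 further targets and partners of ATF4 it was Fgf21, a secreted stress hormone, which read 682, 638 and 337 at 0 h, 3858, 3660 and 1557 at 24 h, and 896, 883 and 751 at 48 h. Its difference at 24 h was 2.34 ± 0.45 (adjusted p = 0.0135), and the median of that list was 0.38. Among 13 genes of the eIF2 kinases, eIF2 and its phosphatases it was Eif2s2, the beta subunit of eIF2, at 0.35 ± 0.08 (adjusted p = 0.0284), with a list median of 0.05. Among 15 markers of endoplasmic reticulum stress it was Herpud1, at 0.89 ± 0.21 (adjusted p = 0.0353), with a list median of 0.15. With a term for replicate 3, 5 of those 15 were higher at 24 h (Herpud1, Dnajb9, Dnajc3, Sdf2l1 and Atf6), against 5.53% of all genes.

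Between 24 and 48 h the replicates parted. Of the 34 genes, 8 were higher at 48 h than at 24 h in replicate 1, 8 in replicate 2 and 31 in replicate 3, with median changes of -0.22, -0.20 and 0.27. Over all genes the shares that were higher at 48 h were 51.4%, 50.2% and 52.0%. The level was highest at 24 h for 16 genes in replicate 1 (all genes 20.1%) and for 17 in replicate 2 (18.8%), and at 48 h for 27 in replicate 3 (23.4%). The 48 h array of replicate 3 was the highest of all 15 for 22 of 34 genes, or 64.7%, against 10.5% of all genes. By role these were 5 of 8 stress regulators, 7 of 8 synthesis genes, 3 of 6 transporters and 7 of 12 synthetases. Slc7a1 is counted there on its dim A probe set. Its brightest B probe set was highest at 24 h in replicate 2 (15251, against 13063 at 48 h in replicate 3), and another B probe set at 48 h in replicate 3 (9857). In the other lists the 48 h array of replicate 3 was the highest for 13 of 24 further targets, 2 of 15 endoplasmic reticulum stress markers, 1 of 16 mitochondrial synthetases and 1 of 7 other cytosolic synthetases.

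Limma called 0 of the 34 genes for the step from 24 to 48 h over all arrays (all genes 0.034%), with 2 at an unadjusted p under 0.05 (all genes 8.37%). With a term for replicate 3 it called Slc1a5 (all genes 2.68%). In replicates 1 and 2 alone it called 5 of 34 (all genes 4.78%). Atf5 fell by 1.30, Psph by 0.89, Trib3 by 0.84 and Chac1 by 0.62, and Slc1a5 rose by 0.89 (log2).

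The size of that split was estimated in a fit with hour and replicate 3 crossed, added after the 48 h array had been seen. Replicate 3 has 1 array per hour there, so the spread comes from replicates 1 and 2 and is assumed to hold for it. Because that array prompted the fit, its p-values describe this array and are no independent evidence. The step was more positive in replicate 3 for 31 of 34 genes, with a median difference of 0.47 (log2), against -0.01 over all genes. It was called for 3 of 34, while 11 of 11772 genes were called (0.0934%). Trib3 changed by 1.70 in replicate 3 and -0.84 in replicates 1 and 2, a difference of 2.54 ± 0.36 (SE, adjusted p = 0.0211). Chac1 changed by 0.92 and -0.62, a difference of 1.54 ± 0.25, and Atf5 by 0.37 and -1.30, a difference of 1.67 ± 0.26 (both adjusted p = 0.0467).

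These calls lie near the threshold. Over 15 alternatives the Trib3 call held in 9, that of Atf5 in 5 and that of Chac1 in 3, with adjusted p of 0.013 to 0.112, 0.0347 to 0.196 and 0.0417 to 0.243. The number called was 1 without the 0 h or 48 h array of replicate 1 or 2 (Trib3), 1 without the 24 h array of replicate 1 (Atf5), 3 without the 4 h array of replicate 1 or 2, and 0 without the other arrays of replicates 1 and 2. The 8 other genes called include 2 partners of the pathway, named here after their values were seen. Ppp1r15a (GADD34), which guides the phosphatase that reverses eIF2 phosphorylation, read 989, 1047 and 530 at 24 h and 445, 511 and 1139 at 48 h, a difference in step of 2.11 (adjusted p = 0.00693). Cebpb, a partner of ATF4 on DNA, read 704, 694 and 508 at 24 h and 550, 555 and 1363 at 48 h, a difference of 1.70 (adjusted p = 0.0467).

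**Figure D4:**
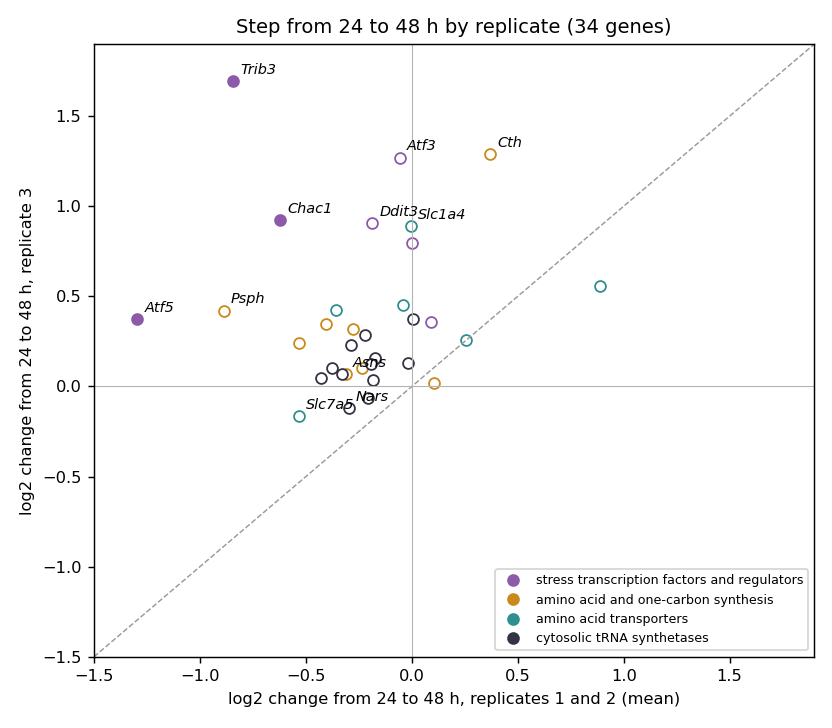
Log2 change from 24 to 48 h in replicate 3 (y axis) against the mean change in replicates 1 and 2 (x axis) for the 34 tested genes, coloured by role, with the dashed line marking equal change. Of the 34 points 31 lie above the line, and the 3 filled points, Trib3, Chac1 and Atf5, were called in the crossed fit.

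The markers of some cell types differed on that array too. The summed intensity of the muscle markers was 41558 at 48 h in replicate 3, the lowest of the 15 arrays. All 8 read lower there than on both other 48 h arrays, and 4 (Chrna1, Des, Myod1 and Myog) were at their lowest of all 15. However, Acta1 and Myh3 on that array were above every 0 h array. Low values were not limited to 48 h, since Myod1, Myog, Des, Ttn and Chrna1 read lowest in replicate 3 at every hour. Des, for example, read 5260, 5967 and 3898 at 0 h. Ckm, Myh3 and Acta1 did not show this at every hour. The pericyte or smooth muscle sum was also lowest on the 48 h array of replicate 3, at 8616 against up to 19909 elsewhere. So was the dim sum of 2 Schwann cell markers, at 133 against up to 261. The fibroblast sum, with Col3a1 alone past the filter, was 3955. That was the highest of the 48 h arrays (from 2165) but lay within 1822 to 4261 over all arrays. The part of these differences in the high values of the amino acid response genes was not tested.

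Several genes had a further probe set. Psph is carried by the same probe set on both chips, and on B, as on A, replicate 3 was the highest at 48 h (3244, 3042 and 8943). A second Trib3 probe set read 174, 114 and 797 and a second Sesn2 probe set 249, 188 and 645. The order was the same there as on the probe sets given above, with replicate 3 highest. For Slc1a4 the further probe sets differed at 48 h. One read 126, 201 and 445, and the other read 214, 129 and 190, where replicate 3 was not the highest. The B probe set of Ddit3 was noisy, running from 31 to 404 at 0 h alone, and read 208, 104 and 263 at 48 h. A B probe set of Slc38a2 differed by -0.60 ± 0.23 at 24 h (adjusted p = 0.313), where the A probe set gave 0.01 ± 0.18. The second Asns probe set rose by 1.07 ± 0.23 (adjusted p = 0.022), and 2 further Eprs probe sets on A gave 0.69 ± 0.18 and 0.65 ± 0.18 (adjusted p = 0.0575 and 0.0708).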

How the data were processed

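The deposited files hold probe set intensities on a linear scale, with a column for each array, and the standard Affymetrix protocol was followed, per the labels. The software, the summarising algorithm and the detection calls were not given in the sources used here. The 2%-trimmed mean of each array was 500.1 to 500.2, so arrays were compared as deposited, and a common mean hides a change in total RNA per cell. Probe sets were named from GEO's platform annotation, with 20380 on A and 14661 on B naming a single gene, 691 and 245 naming several, and 1555 and 7605 unnamed here. Each gene was represented by its brightest probe set, from A where it had one.

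From the intensities, log2(intensity + pseudocount) was computed with the 20th percentile of each chip as pseudocount, which understates changes of dim genes. The upper 60% of the 22690 A and 22575 B probe sets were tested (13576 and 13507). Each chip was fitted in limma 3.58.1 under R 4.3.3 (lmFit, eBayes with an intensity trend) over its 15 arrays with hour as factor. P-values were two-sided and adjusted by Benjamini-Hochberg within chip and comparison. All comparisons with 0 h share its arrays. With 3 arrays against 3 an exact permutation test cannot go below 0.1. The fits were tested on simulated data.

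The genes, role groups and pathway lists were chosen with earlier results of these data known. Values per array are given for Atf4, Asns, Ddit3, Trib3 and Chac1 and for the 4 genes with the smallest F test p in each role group, with further genes given after their values were seen. Genes of other lists are named where called against 0 h. The alternatives were quantile normalization, smaller and larger pseudocounts (the latter 4 times the one used), no filter, averaging a gene's probe sets, the replicate number as a block, a term for replicate 3, replicates 1 and 2 alone, and leaving out each array. The crossed fit was added after seeing the data.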

Additional observations from a re-analysis of the deposited data

Results flagged for a closer look

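The step from 24 to 48 h differed between replicate 3 and replicates 1 and 2 for 3 of the 34 genes, by the crossed fit. The difference in step was 2.54 (log2) for Trib3, 1.67 for Atf5 and 1.54 for Chac1. It rests on 1 array of replicate 3 at each hour, and the fit was prompted by the 48 h array itself, so it is a description of that array and no independent evidence.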

How the results depend on the processing

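Counts of the 34 genes called depended on how replicate 3 was treated. With a term for replicate 3 they were 2 at 12 h, 13 at 24 h, 7 at 48 h, 1 for the step from 24 to 48 h and 7 in the F test. The shares of all genes were, in that order, 0.977%, 11.8%, 9.15%, 2.68% and 13%. In replicates 1 and 2 alone they were 1 at 4 h, 6 at 12 h, 14 at 24 h, 5 at 48 h, 5 for the step from 24 to 48 h and 11 in the F test. There the shares of all genes were 0.136%, 3.5%, 13.6%, 12%, 4.78% and 16.3%, so the count at 48 h was near that of all genes. With the replicate block the counts of the 34 genes were 1 at 12 h, 11 at 24 h, 7 at 48 h, 1 for the step from 24 to 48 h and 8 in the F test. Shares of all genes were not taken for the block or for the alternatives below. Deviations of same-numbered arrays correlated at 0.0443 to 0.621 on A and 0.00258 to 0.233 on B in replicate 1. In replicate 3 they reached 0.726 on A and 0.432 on B. For replicate 2 the A arrays gave 0.123 to 0.457 and the B arrays 0.0383 to 0.197. Even the lowest value was positive in every replicate on both chips, so same-numbered arrays shared some of their deviation. The main fit did not pair samples by number, and these correlations do not justify that choice. It called 5 of the 34 genes at 24 h, against 11 with the block. Changes between same-numbered arrays are given as descriptions only. Quantile normalization gave 3 at 24 h and 2 at 48 h. Without a filter the counts were 3 at 24 h, 0 at 48 h and 0 in the F test. Leaving out 1 array gave 0 to 7 at 24 h, 0 to 1 at 48 h, 0 to 4 in the F test and 0 in the other comparisons. The crossed fit called 1 gene with 4 times the pseudocount, 0 without a filter, 0 with a gene's probe sets averaged, and 0 to 3 when 1 array was left out. The cause was not tested for any of these. The step of Trib3 from 24 to 48 h, near 0 over all arrays, was -0.84 in replicates 1 and 2 alone. Over 37 changes of single genes and 23 alternatives, 741 values kept their side of the threshold and direction, 49 lost a call and 60 gained one. Only 6 of the 37 changes were called over all arrays, so the 49 losses all fell on those 6. Most of the 741 values were changes not called in either fit, so they say little about how stable the calls were. The number of arrays, 3 per hour, limits the precision, and the A probe sets of Slc7a1 and Slc7a11 were too dim to follow.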
